A study of Homo sapiens with 8 samples.

Results

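The genes described here encode subunits of the oxidative phosphorylation complexes I to V. They were the genes with a probe set of 1 gene symbol whose symbol starts with NDUFA, NDUFB, NDUFC, NDUFS, NDUFV, SDH, UQCR, COX4, COX5, COX6, COX7, COX8 or ATP5, without the NDUFAF assembly factors and without pseudogenes and noncoding transcripts. Of 19775 genes on the array 77 met this rule, 33 of complex I, 3 of complex II, 6 of complex III, 17 of complex IV and 18 of complex V. Of several probe sets of a gene, the one with the highest mean over the 8 arrays was used. Of the 77 genes, 73 had a mean log2 signal of at least 6.01, the median over all probe sets, and entered the tests. The other 4 (COX6B2, COX7A1, COX7B2 and COX8C, all of complex IV) are given by their values. The dimmest gene just inside this limit was ATP5MF at 6.25, and the brightest just outside was COX6B2 at 5.54.

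Complexes I to IV form the respiratory chain of the inner mitochondrial membrane. Complex I takes electrons from NADH, complex II from succinate, complex III passes them to cytochrome c, and complex IV hands them to oxygen. The proton gradient that complexes I, III and IV build drives complex V, the ATP synthase. Most subunits are encoded in the nucleus, and their transcription is known to depend on NRF1, on GABP, an ETS factor, and on coactivators of the PGC-1 family.

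Expression was measured on Affymetrix U133 Plus 2.0 arrays in cells of the side population (SP), which export the dye Hoechst, and of the main population (MP), which retain it. Both were sorted as viable cells from 4 established human lung adenocarcinoma lines, of which A549 and H460 carry mutated K-Ras and the others, H1650 and H1975, mutated EGFR. No other treatment is named in the labels. There were 8 arrays, 1 for each population of each line, and this small number limits the precision. The values are log2 MAS5 signals, the array software's summary of each probe set. A signal can be compared between arrays for 1 probe set, and levels of different genes were not compared.

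The arrays fitted their labels as epithelial lines in part. KRT8, KRT18 and KRT19, the keratins of simple epithelium, lay between 11.69 and 14.33 on all arrays, while CDH1, the epithelial cadherin, was at 0.63 and 1.61 in H460. The leukocyte marker PTPRC lay between 3.14 and 4.72, and 1 of 3 leukocyte, 1 of 2 endothelial and 3 of 3 fibroblast markers passed the signal limit. ABCG2, the dye transporter, was lower in SP than in MP by the labels of H1650 (log2 SP minus MP of -0.70), where A549, H460 and H1975 had 1.08, 0.36 and 1.17. Directions of SP against MP in H1650 rest on its labels. The difference of a line from the others uses both its arrays and does not depend on which is which, but the error of its test does. The log2 difference between the 3' and 5' control probe sets of ACTB, a measure of RNA integrity, ran from 0.23 to 0.65 in SP and from 0.26 to 0.58 in MP. It differed by line, with 0.23 (SP) and 0.26 (MP) in H1650 and 0.36 and 0.52 in H1975. In A549 it was 0.52 and 0.56 and in H460 0.65 and 0.58. Its part in the differences between lines was not tested.

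Promoters of 66 of the 77 genes were found in the RefSeq table (GRCh38.p14). The letters of an NRF1 site, GCGCA and GCGC with 1 base of any kind between them, stood in the 250 bases before the gene start, on either strand, in 14 of them (21.2%) and in 7.65% of 15843 protein-coding promoters. The ETS letters CCGGAAG stood in 15 (22.7%), against 11.8%. At least 1 of them was found in 27 genes (40.9%), against 18.2%. The promoters shown are those of some of the genes that differed between the lines. They do not stand for all such genes, and most of them hold a match, unlike most of the 66. SDHA, UQCR11, COX6B1 and NDUFB7 hold such letters and NDUFA7, the gene with the widest range, holds none, which says nothing of the factors themselves. The promoter of ATP5MC1, whose line means spanned 3.55-fold, is not shown and holds none either. Capitals mark the matches, and each sequence runs 5′ to 3′ on the strand of its gene and ends at the base before the start.
SDHA, chr5:218070-218319, + strand: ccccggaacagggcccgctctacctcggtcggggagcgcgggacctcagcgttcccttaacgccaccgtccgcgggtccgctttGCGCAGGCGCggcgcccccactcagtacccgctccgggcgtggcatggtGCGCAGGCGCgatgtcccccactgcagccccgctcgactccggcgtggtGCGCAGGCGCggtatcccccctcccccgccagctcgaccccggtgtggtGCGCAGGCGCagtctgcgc
UQCR11, chr19:1605463-1605712, - strand: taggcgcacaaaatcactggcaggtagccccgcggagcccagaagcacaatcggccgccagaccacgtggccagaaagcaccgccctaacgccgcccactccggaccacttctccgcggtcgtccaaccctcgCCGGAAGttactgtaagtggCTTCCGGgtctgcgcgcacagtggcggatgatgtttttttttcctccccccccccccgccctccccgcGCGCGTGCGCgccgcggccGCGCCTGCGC
COX6B1, chr19:35648073-35648322, + strand: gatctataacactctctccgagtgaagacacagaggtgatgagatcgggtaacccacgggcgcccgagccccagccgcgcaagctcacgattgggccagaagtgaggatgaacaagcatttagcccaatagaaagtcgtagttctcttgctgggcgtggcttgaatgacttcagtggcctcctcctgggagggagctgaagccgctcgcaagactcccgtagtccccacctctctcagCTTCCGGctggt
NDUFB7, chr19:14572067-14572316, - strand: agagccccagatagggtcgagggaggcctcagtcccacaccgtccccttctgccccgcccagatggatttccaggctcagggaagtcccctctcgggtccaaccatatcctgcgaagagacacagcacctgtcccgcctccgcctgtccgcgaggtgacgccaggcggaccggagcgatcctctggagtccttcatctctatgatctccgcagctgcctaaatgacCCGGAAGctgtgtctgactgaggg
NDUFA7, chr19:8321376-8321625, - strand: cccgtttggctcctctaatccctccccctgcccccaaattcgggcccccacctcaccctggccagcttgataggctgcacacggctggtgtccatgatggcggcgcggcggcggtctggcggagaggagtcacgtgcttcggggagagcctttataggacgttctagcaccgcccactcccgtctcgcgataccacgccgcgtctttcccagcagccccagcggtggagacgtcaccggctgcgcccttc
In SDHA the NRF1 letters began 166, 117, 68 and 19 bases before the start. UQCR11 held both kinds, with NRF1 letters at 29 and 10 bases and ETS letters at 117 and 97 bases. The ETS letters began 12 bases before the start in COX6B1 and 24 bases before it in NDUFB7.

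The subunit genes differed between the lines about as often as all genes tested did. The members of 1 complex did not all move the same way. H460 most often had the highest signal, a place that A549 took after quantile normalization (22 genes against 21), and H1975 most often had the lowest under each scaling tried. By limma with Benjamini-Hochberg adjustment over 12300 genes, 56 of 73 genes differed between the lines at an adjusted p under 0.05, where 76.3% of all genes tested did. These were 26 of 33 genes of complex I, 1 of 3 of complex II, 5 of 6 of complex III, 9 of 13 of complex IV and 15 of 18 of complex V. The range of the 4 line means had a median of 0.55 on the log2 scale over the 73 genes, against 1.13 over all genes tested and 0.63 over the 1352 genes with a mean signal of at least 12. It reached 2-fold in 11 of the 73 genes, against 6998 of the 12300 genes tested and 321 of these 1352. The highest line mean was that of H460 in 29 genes (39.7%), A549 in 21 (28.8%), H1975 in 13 (17.8%) and H1650 in 10 (13.7%). In this order the shares were 24.3%, 21.7%, 29.4% and 24.6% of all genes tested and 35.7%, 25.0%, 20.6% and 18.8% of those 1352 genes. The lowest was that of H1975 in 36 genes (49.3%), H1650 in 21 (28.8%), A549 in 14 (19.2%) and H460 in 2 (2.74%). The shares in this order were 23.7%, 27.0%, 21.3% and 28.0% of all genes tested and 30.8%, 33.4%, 17.5% and 18.3% of the 1352. With 1 array per population, the test measures the spread of the SP to MP difference between lines, since no line was sorted and hybridised again.

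**Figure D1:**
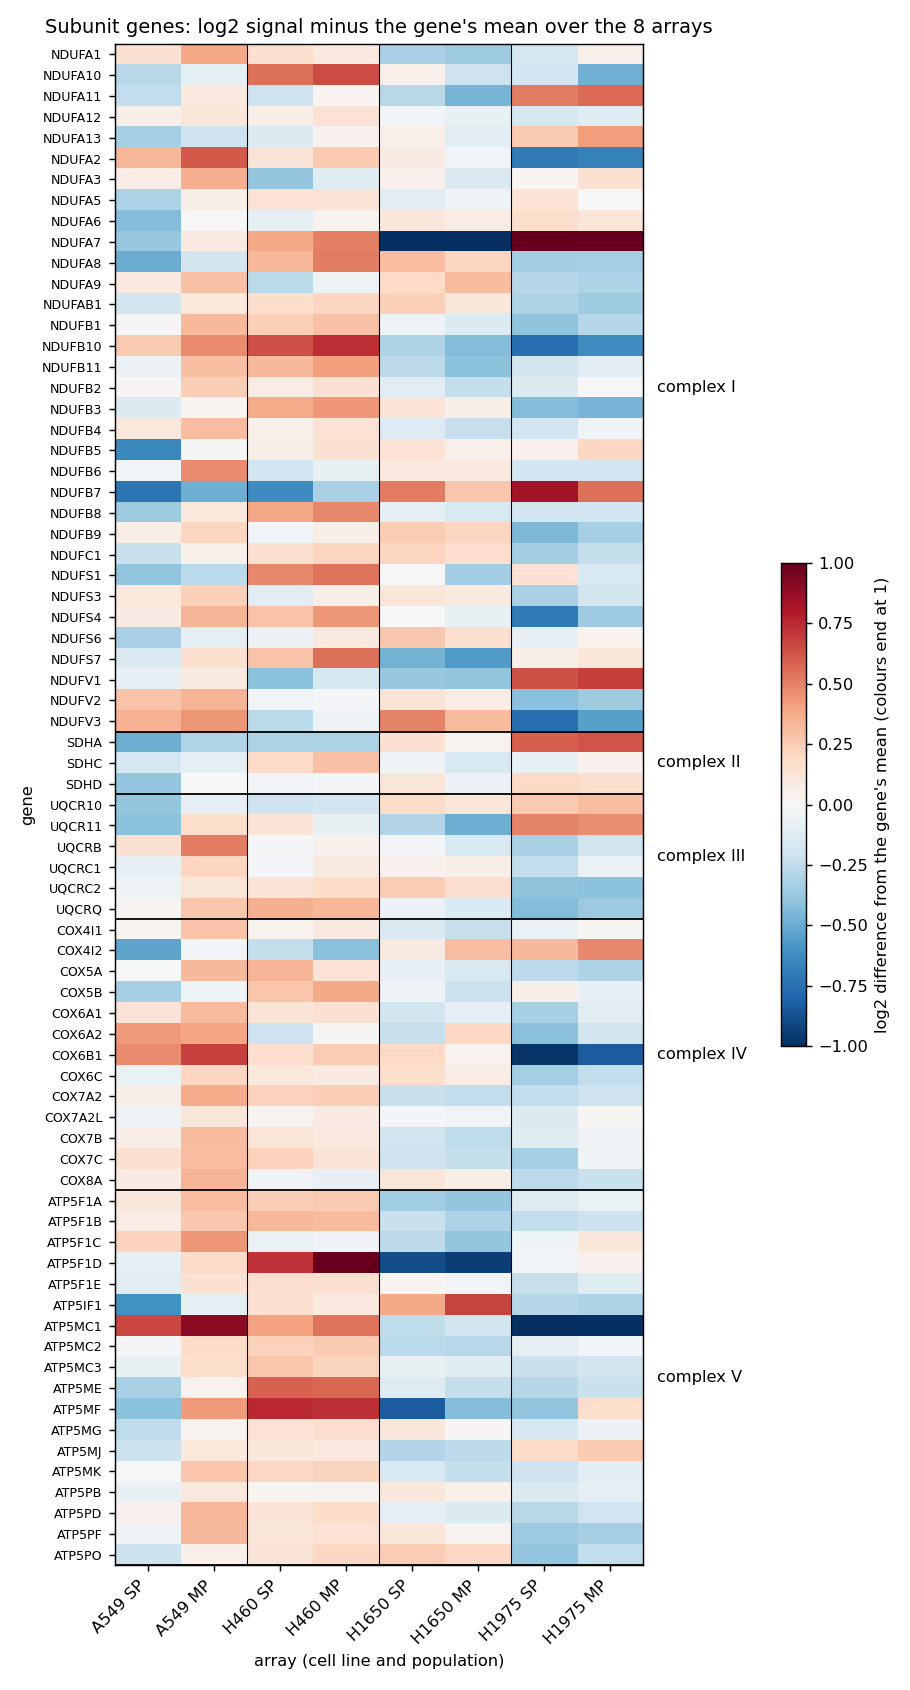
Log2 signal of the 73 tested subunit genes (rows, by complex) on the 8 arrays (columns), as the difference from each gene's mean over the arrays, with colours ending at 1. NDUFA7 is beyond the scale in H1650, and ATP5MC1 and COX6B1 are low on both H1975 arrays.

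In H460 29 of the 73 genes were higher than in the other 3 lines and 5 were lower, while 24.2% of all genes tested were higher and 26.8% lower. In H1975 9 were higher and 33 lower (28.1% and 23.8% of all genes). In A549 18 were higher and 9 lower (22.4% and 21.3%), and in H1650 10 were higher and 22 lower (25.1% and 25.9%). The subunit genes are bright, and of the 1352 tested genes with a mean signal of at least 12, which hold 57 of the members, 33.6% were higher and 17.1% lower in H460 and 20.9% higher and 29% lower in H1975. For A549 these shares were 24.9% and 15.9%, and for H1650 18.9% and 32.2%. Scaling moved the splits. After quantile normalization 22 genes were higher and 10 lower in H460, 12 and 33 in H1975, 22 and 16 in A549, and 21 and 17 in H1650, where the balance thus turned. After scaling the arrays to the same median the counts were 41 and 0 in H460, 7 and 21 in H1975, 3 and 9 in A549, where the balance turned, and 2 and 15 in H1650. The counts also rested on single arrays. H460 had 9 genes higher and 0 lower without its SP array and 8 and 2 without its MP array. H1975 had 6 and 17 without its SP array and 5 and 15 without its MP array. In A549 the balance turned to 4 higher and 13 lower without its MP array, while 23 and 0 were called without its SP array. In H1650 it turned to 9 and 7 without its MP array, against 1 and 20 without its SP array. Without the H460 SP array A549 had 11 and 5 and H1650 had 5 and 13, and without the H460 MP array A549 had 9 and 4.

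In 20 of 73 genes both H460 arrays lay above the other 6 arrays, which was so for 15.9% of all genes tested and 23% of the bright genes, and in 0 genes did both lie below (17.1% and 11.2%). In 28 genes both H1975 arrays lay below the other 6 (15.4% of all genes and 20.2% of the bright ones), and in 12 genes both lay above (19.3% and 12.9%). After quantile normalization 15 lay above and 2 below in H460, and 11 and 26 in H1975. After scaling to the same median these were 38 and 0, and 8 and 21. The median log2 difference of a gene from the other 3 lines was 0.19 in H460 and -0.21 in H1975, against -0.03 and 0.06 over all genes tested and 0.13 and -0.07 over the bright genes. In H460 it came to 0.036 after quantile normalization (-0.0003 over the bright genes) and 0.42 after scaling to the same median (0.36). In H1975 it came to -0.16 (-0.0064) and -0.24 (-0.09). It was 0.09 in A549, which turned to -0.06 after scaling to the same median, and -0.11 in H1650, which turned to 0.04 after quantile normalization. Single arrays turned these medians too. A549 had -0.02 without its MP array and 0.20 without its SP array, and H1650 had 0.0038 without its MP array and -0.21 without its SP array.

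**Figure D2:**
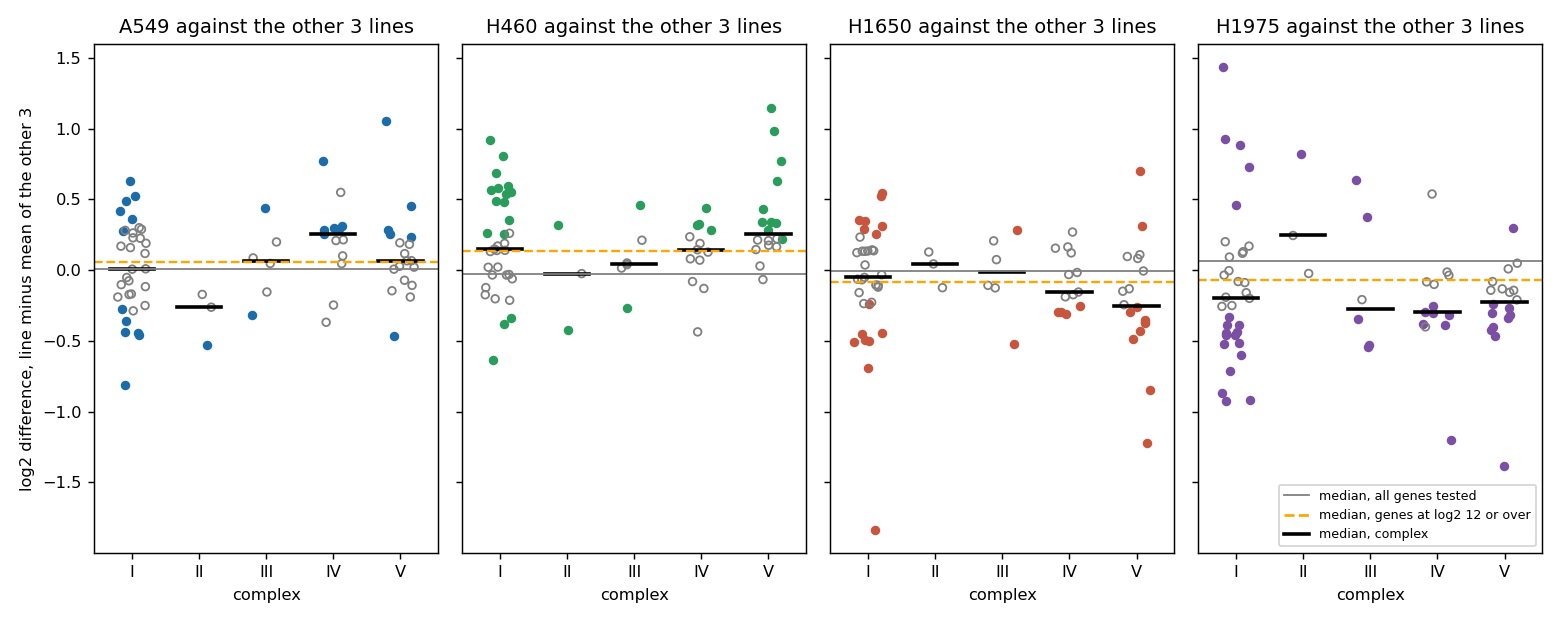
Log2 difference of each tested subunit gene between a line and the mean of the other 3, by complex; filled points passed an adjusted p under 0.05 from limma and open points did not, and bars are medians. Complex V lies above 0 in H460, with 10 genes higher and 0 lower, and complex IV below 0 in H1975, with 0 higher and 7 lower. After scaling to the same median the 7 became 2, and after quantile normalization 7 genes of complex V were higher and 2 lower in H460.

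Differences below are log2 values, a line minus the mean of the other 3, so a negative value is a lower signal in that line. Complex I held the gene with the widest range of the 73. NDUFA7, an accessory subunit, had log2 signals of 10.14 (SP) and 9.97 (MP) in H1650, 11.06 and 11.52 in A549, 11.81 and 11.94 in H460, and 12.43 and 12.59 in H1975. The 4 lines did not overlap, and the line means spanned 5.47-fold. NDUFA7 was lower in H1650 at -1.83 (SE 0.13, limma adjusted p = 3.67e-05) and higher in H1975 by 1.43 (SE 0.13, adjusted p = 9.96e-05). A second, dim probe set of NDUFA7 had -1.71 and 2.14 in these lines.

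NDUFB10, another accessory subunit, had 13.23 and 13.32 in H460, 12.85 and 13.05 in A549, 12.27 and 12.15 in H1650, and 11.83 and 11.96 in H1975. These lines did not overlap either. It differed from the other lines by 0.92 in H460 and at -0.92 in H1975 (SE 0.09, limma adjusted p = 0.000142 and 0.000152). NDUFA2, an accessory subunit of the arm that oxidises NADH, differed by 0.63 in A549 and -0.92 in H1975, where its signals were 11.39 and 11.42. Read without probe sets of shared suffix, through a dim probe set, NDUFA2 had 0.50 and -0.41 and neither passed (adjusted p = 0.136 and 0.201).

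NDUFB7 and NDUFV1 went the other way, with their highest signal in H1975. NDUFB7, an accessory subunit of the membrane arm, had 11.65 and 11.37 in H1975, 11.34 and 11.08 in H1650, 10.18 and 10.49 in H460 and 10.08 and 10.33 in A549, so that A549 and H460 overlapped. It was higher in H1975 by 0.92 and in H1650 by 0.53, and lower in A549 at -0.81 and in H460 at -0.64 (SE 0.15, limma adjusted p from 0.00166 to 0.0208). The 3 calls other than H1975 were lost without 1 SP array: A549 with adjusted p = 0.0694 and H460 with 0.16 without their own, and H1650 with 0.0502 without that of A549 and 0.175 without its own. NDUFV1, the core subunit that binds NADH and FMN, was at 13.03 and 13.09 in H1975 and between 11.99 and 12.49 elsewhere, a difference of 0.88 (SE 0.09, adjusted p = 0.000158). Over all of complex I, 13 of 33 genes were higher and 3 lower in H460, and 5 were higher and 14 lower in H1975.

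Further complex I genes called in H460 were NDUFA10, an accessory subunit (0.80), NDUFS1, the largest core subunit, which holds iron-sulfur clusters (0.69), and NDUFA8 (0.56). The arrays of NDUFA10 were at 12.26 and 12.36 in H460 and at 11.76 or less elsewhere. NDUFA8 was also higher in H1650 (0.35) and lower in A549 and H1975 (-0.46 each), although the A549 call was lost without its SP array (adjusted p = 0.119) and that of H1650 without its own SP array (adjusted p = 0.206), either H460 array (0.0685 and 0.0509) or the H1975 MP array (0.0526). NDUFV3 had 0.54 in H1650, 0.53 in A549 and -0.87 in H1975, and its second probe set had the opposite sign in H1650 (-1.18) and in H1975 (0.42), so its direction was not settled. Its calls were also lost without the SP array of H1650 in that line (adjusted p = 0.0543) and without either array of A549 in that one (0.0769 and 0.0861). NDUFA3 was lower in H460 at -0.34 (adjusted p = 0.0374), a call lost without either H460 array (adjusted p = 0.326 and 0.115), without the A549 MP array (0.0771), and without either H1975 array (0.0674 and 0.0711).

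Complex II, the succinate dehydrogenase that also serves the tricarboxylic acid cycle, was measured by 3 of its subunits. SDHA, the flavoprotein subunit that oxidises succinate, had 12.33 and 12.36 in H1975, 11.89 and 11.77 in H1650, 11.42 and 11.41 in H460 and 11.24 and 11.43 in A549, so that the last 2 overlapped. It was higher in H1975 by 0.82 (SE 0.09, limma adjusted p = 0.000329) and lower in A549 at -0.53 and in H460 at -0.42. Without the SP array of A549 its call in that line was lost (adjusted p = 0.0563), and without either H460 array that in H460 was lost (adjusted p = 0.0792 and 0.104). The probe set of SDHA carries the suffix of probe sets that can bind related transcripts, and SDHA has near-identical pseudogene copies, so its level is uncertain. By their brightest probe sets SDHC and SDHD, the membrane anchors, differed less. SDHC was higher in H460 by 0.32 (adjusted p = 0.0188), and SDHD passed in 0 of the 4 comparisons, with differences from -0.26 to 0.24. However, 2 dimmer probe sets of SDHC had -1.51 and -1.27 in H1650 and 1.12 and 0.98 in H1975. Its other probe sets lay between -0.37 and 0.13 in H1650 and between -0.18 and 0.21 in H1975, so SDHC was not settled in these lines. SDHC passed the test over the 4 lines in 7 other settings and not here, with adjusted p from 0.00891 to 0.0411 in them.

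**Figure D3:**
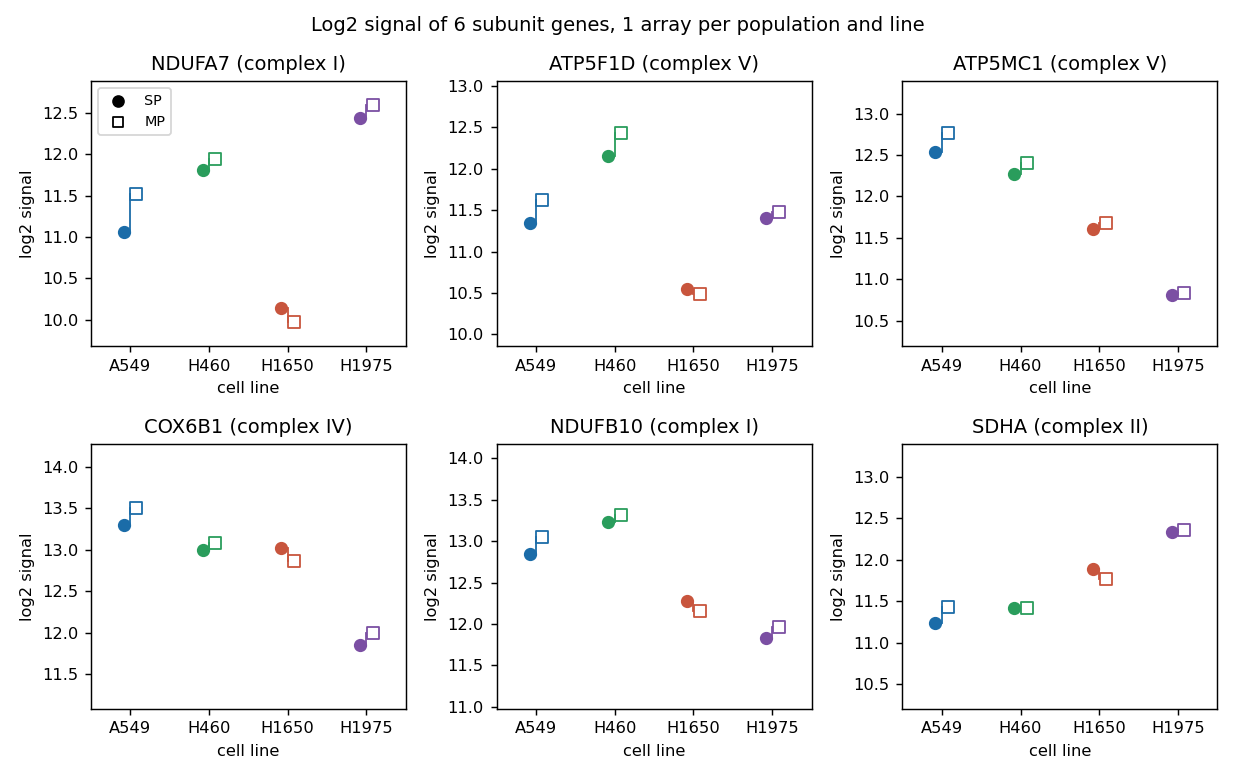
Log2 signal of 6 subunit genes in the SP (circles) and MP (open squares) of the 4 lines, 1 array each, with axes of the same length. In each of the 6 genes, all among the 11 with a 2-fold range, the highest and lowest line differ by more than SP and MP of a line do. Some lines overlap, such as A549 and H1975 in ATP5F1D. NDUFA7 is lowest in H1650 and ATP5MC1 in H1975.

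In complex III 3 of 6 genes were lower and 2 higher in H1975. UQCRC2, a core protein, was at 12.76 and 12.75 in H1975 and between 13.11 and 13.42 on the other 6 arrays (difference -0.54, limma adjusted p = 0.000957). UQCRQ, a small accessory subunit, was lower in H1975 at -0.53 and higher in H460 by 0.46. UQCR11 and UQCR10, also small subunits, were higher in H1975 by 0.64 and 0.38. UQCRC1, the other core protein, passed in none of the 4 comparisons, with differences from -0.21 to 0.09.

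In complex IV the differences of 1 line ran nearly one way, and here A549 stood at the upper end. In A549 6 of 13 genes were higher and 0 lower, in H460 4 and 0, in H1650 0 and 4, and in H1975 0 and 7. After scaling to the same median 1 gene was higher in A549 and 0 were called in H1650, and after quantile normalization 3 were higher and 1 lower in H1650. COX6B1, a subunit that faces the intermembrane space, had 13.30 and 13.51 in A549, 12.99 and 13.08 in H460, 13.02 and 12.86 in H1650 and 11.85 and 11.99 in H1975. H1975 lay apart from the other lines, and H460 and H1650 overlapped. The difference was -1.20 in H1975 (SE 0.09, limma adjusted p = 4.95e-05) and 0.77 in A549 (adjusted p = 0.000558). COX7A2 was called in each line, higher in H460 (0.32) and A549 (0.29) and lower in H1975 (-0.30) and H1650 (-0.31). COX4I1, COX5A, COX5B, COX6A1, COX6C, COX7B, COX7C and COX8A differed by at most 0.44 in size in any line, and COX7A2L, now known as a supercomplex assembly factor, by at most 0.08.

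The tissue-restricted isoforms of complex IV were dim. COX4I2, the isoform induced by low oxygen in lung, lay between 6.50 and 7.51, and COX6A2, of heart and skeletal muscle, between 5.96 and 6.81. Neither passed in any comparison. COX7A1, also of muscle, lay between 0.89 and 4.10, COX8C between 1.65 and 5.36, and COX7B2 between 2.98 and 5.83. COX6B2, the testis isoform, lay between 4.29 and 6.71, and its 2 highest signals were those of the H1975 arrays, 6.45 in SP and 6.71 in MP. A level this low was not told apart from background, since no detection calls were at hand.

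Complex V was higher in H460, where 10 of 18 genes passed and 17 of 18 had a positive difference, and lower in H1650 and H1975, where 9 genes were lower in each and 2 and 1 were higher. After quantile normalization 6 were higher and 8 lower in H1650 and 2 and 10 in H1975, and after scaling to the same median 1 and 7 in H1650 and 0 and 3 in H1975. ATP5F1D, the delta subunit of the central stalk, had 12.16 and 12.43 in H460, 11.34 and 11.62 in A549, 11.40 and 11.47 in H1975 and 10.54 and 10.49 in H1650. H460 lay above and H1650 below the other 2 lines. The difference was 1.15 in H460 and -1.22 in H1650 (SE 0.10, limma adjusted p = 0.000107 and 8.53e-05). A second probe set had 0.84 and -1.35 in these lines, and 0.91 in H1975, where the first had 0.0085. Of the other subunits of the catalytic head, ATP5F1A and ATP5F1B were lower in H1650 at -0.49 and -0.35 and higher in H460 by 0.34 and 0.43.

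The membrane ring of complex V is built from a protein that 3 genes encode, ATP5MC1, ATP5MC2 and ATP5MC3, whose mature products are identical. ATP5MC1 had 12.54 and 12.77 in A549, 12.27 and 12.41 in H460, 11.61 and 11.68 in H1650 and 10.81 and 10.84 in H1975. The lines did not overlap and spanned 3.55-fold. ATP5MC1 differed by 1.05 in A549 and at -1.39 in H1975 (SE 0.09, limma adjusted p = 0.000108 and 2.27e-05). ATP5MC2 and ATP5MC3 stayed within a narrower range, with H460 higher by 0.33 and 0.34, and H1975 at -0.08 (adjusted p = 0.392) and -0.27 (adjusted p = 0.0276).

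Of the remaining subunits of complex V, ATP5ME was higher in H460 by 0.77. ATP5MF, read by a dim probe set, had 0.98 in H460 and -0.85 in H1650, and both calls were lost without either array of the line itself (adjusted p = 0.272 and 0.0613 in H460, and 0.146 and 0.181 in H1650). The H460 call also missed without the A549 SP array (0.0508), and that of H1650 without the A549 MP (0.0901), H460 SP (0.0989), H1975 SP (0.0639) or H1975 MP array (0.0801). The line means of ATP5MF were 6.99 in H460, 6.25 in A549, 6.14 in H1975 and 5.61 in H1650, where the signal limit was 6.01. Its H460 signals helped it past that limit, so its higher call there was not independent of the filter. ATP5MF counts among the 10 complex V genes called higher in H460 and among the genes with a 2-fold range. ATP5IF1 encodes the inhibitor of the enzyme. It was at 11.94 and 12.23 in H1650, 11.71 and 11.66 in H460, 11.28 and 11.25 in H1975 and 10.95 and 11.47 in A549. Its difference was 0.70 in H1650 (SE 0.13, limma adjusted p = 0.0033), -0.40 in H1975 and -0.47 in A549, and the last was lost without the SP array of A549 (adjusted p = 0.286) or of H460 (adjusted p = 0.0608). A second probe set, nearly as bright, put H460 highest, with 0.49 there, 0.22 in H1650, -0.06 in A549 and -0.65 in H1975, so the order of the lines was not settled.

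Of the 73 genes, 9 lie on chromosome 19. In the order along the chromosome, the first 5 were ATP5F1D, NDUFS7, UQCR11, NDUFA11 and NDUFA7, and each was lower in H1650, at -1.22, -0.69, -0.52, -0.50 and -1.83 (limma adjusted p from 3.67e-05 to 0.0237). The next gene, NDUFB7, was higher there by 0.53. The last 3, NDUFA13, COX6B1 and NDUFA3, had -0.03, 0.15 and -0.07 in H1650 and did not pass. In H1975 the genes from UQCR11 to NDUFA13 were higher, by 0.46 to 1.43, and COX6B1 was lower. The 138 other tested genes between ATP5F1D and NDUFA7 were set beside these after the values had been seen. In H1650 79 of them were lower and 14 higher, with a median of -0.53, and in H1975 94 were higher and 6 lower, with a median of 0.89. Among the 265 other genes between NDUFA7 and COX6B1 the median was 0.10 in H1650 and 0.82 in H1975. Of all genes tested, 25.9% were lower in H1650 and 28.1% higher in H1975. By their brightest probe sets, ATP5F1D and NDUFS7 did not follow these neighbours in each line. They had 0.0085 and 0.13 in H1975 (limma adjusted p = 0.952 and 0.391). In H460 they were higher by 1.15 and 0.55, where the median of the 138 genes was -0.18. A second probe set of ATP5F1D had 0.84 in H460 but 0.91 in H1975, near the median of the 138 genes there. The place of ATP5F1D in H1975 was thus not settled. The part of the position in the result was not tested.

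**Figure D4:**
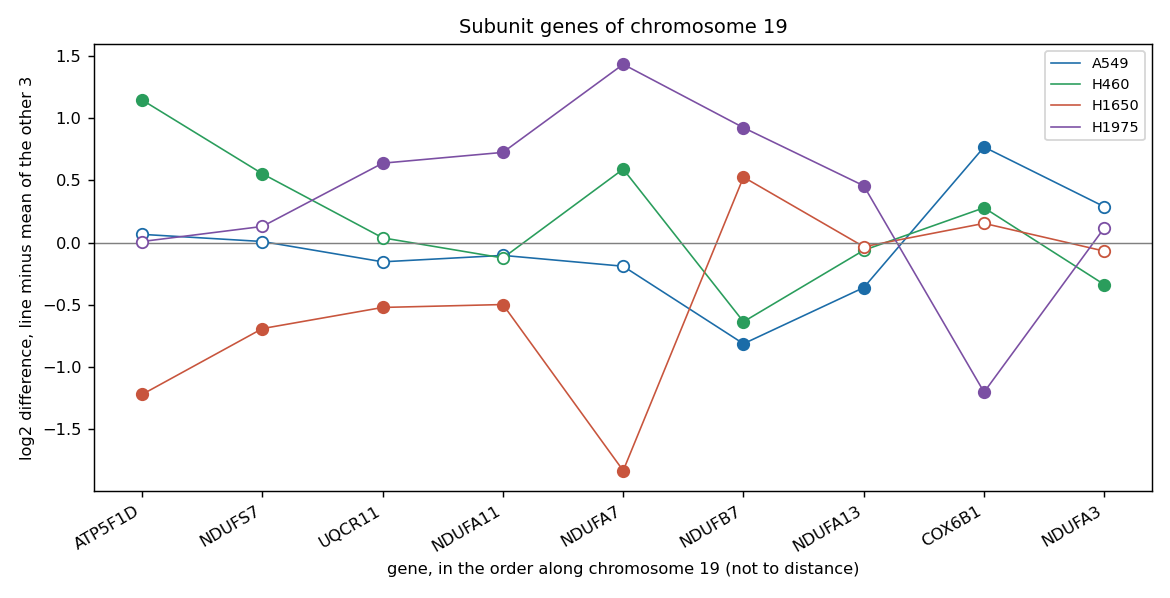
Log2 difference of the 9 subunit genes of chromosome 19 between each line and the mean of the other 3, in the order along the chromosome and not to distance; filled points passed an adjusted p under 0.05 from limma. The first 5 genes are below 0 in H1650 and NDUFB7 is above 0.

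The second question of the design was how SP differs from MP. No subunit gene differed at an adjusted p under 0.05 from limma over the 4 lines, with 0 of 12300 genes (0% higher and 0% lower) called in all. At an unadjusted p under 0.05, 0 of the 73 genes passed, against 3.02% of all genes. With the H1650 labels exchanged, 16 members passed unadjusted, all lower in SP, with a lowest adjusted p of 0.127, and of all genes 192 were called higher and 18 lower. Without both H1650 arrays 6 members passed unadjusted, all lower in SP (lowest adjusted p = 0.283), and 23 genes were called higher and 2 lower. The sign was shared by most genes, since the mean over the 4 lines was lower in SP in 71 of 73, where it was so in 54.6% of all genes tested and 69.2% of the bright genes, and it was lower in 65 after quantile normalization and 71 after scaling to the same median. The exceptions were NDUFS1 with 0.11 and NDUFA10 with 0.07. The lowest means were those of ATP5MF (-0.45), COX6A2 (-0.22), both dim, and NDUFB5, an accessory subunit of complex I (-0.20), all with an adjusted p of 0.945. In sorted cells a lower signal can come from fewer cells with the transcript or from less transcript per cell, and these cannot be told apart.

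Within A549 the SP signal was lower in 72 of 73 genes, where 49.4% of all genes tested and 79.6% of the bright genes were lower. The median log2 difference of SP minus MP was -0.26, against 0.00 over all genes and -0.14 over the bright ones. It was -0.24 in complex I, -0.19 in complex II, -0.30 in complex III, -0.25 in complex IV and -0.27 in complex V. Quantile normalization brought the median of the 73 genes to -0.11 and scaling to the same median to -0.42. The A549 MP array had the highest signal of the 8 in 26 genes and its SP array the lowest in 18. In H460 55 genes were lower (55% of all genes and 49.4% of the bright ones) and the median was -0.06, with complex I at -0.10 and the other complexes between -0.03 and -0.01. In H1975 58 genes were lower (54.7% and 57.6%) and the median was -0.07, which turned to 0.10, with 8 genes lower, after scaling to the same median. That scaling moved the median of all genes in H1975 from -0.04 to 0.14 and in A549 from 0.00 to -0.15.

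H1650 went the other way with the labels as deposited. Under these labels ABCG2 (-0.70) and the 5 cell cycle genes given below (median -1.24) were also lower in its SP, unlike in the other lines. Whether the labels were exchanged was not tested. There 62 of 73 genes were higher in the array labelled SP and 11 were lower, where 51.2% of all genes and 37.6% of the bright genes were lower, and the median was 0.08, against -0.01 over all genes and 0.04 over the bright ones. In 39 genes SP was lower in A549, H460 and H1975 and higher in H1650, a pattern of 14.2% of all genes tested and 23.4% of the bright ones, which 36 genes showed after quantile normalization and 2 after scaling to the same median. Lower in SP throughout the 4 lines were ATP5MC1, COX6A1, NDUFB6 and UQCRC1, 5.48% of the members, where 6.48% of all genes and 4.81% of the bright genes were so, and no subunit gene was higher throughout. None of the 73 tested genes reached 2-fold in any line. The 4 genes below the signal limit did, with -1.88 in COX6B2 and -1.61 in COX7A1 in A549, 1.14 in COX7A1 in H1650, -1.95 in COX7B2 in H460 and -1.01 in H1650, and -2.998 in COX8C in H1650, and levels this low were not told apart from background. The shares of all genes tested that did so upwards and downwards were 2.87% and 1.41% in A549, 1.02% and 2.02% in H1650, 1.98% and 1.42% in H460, and 1.78% and 2.36% in H1975.

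**Figure D5:**
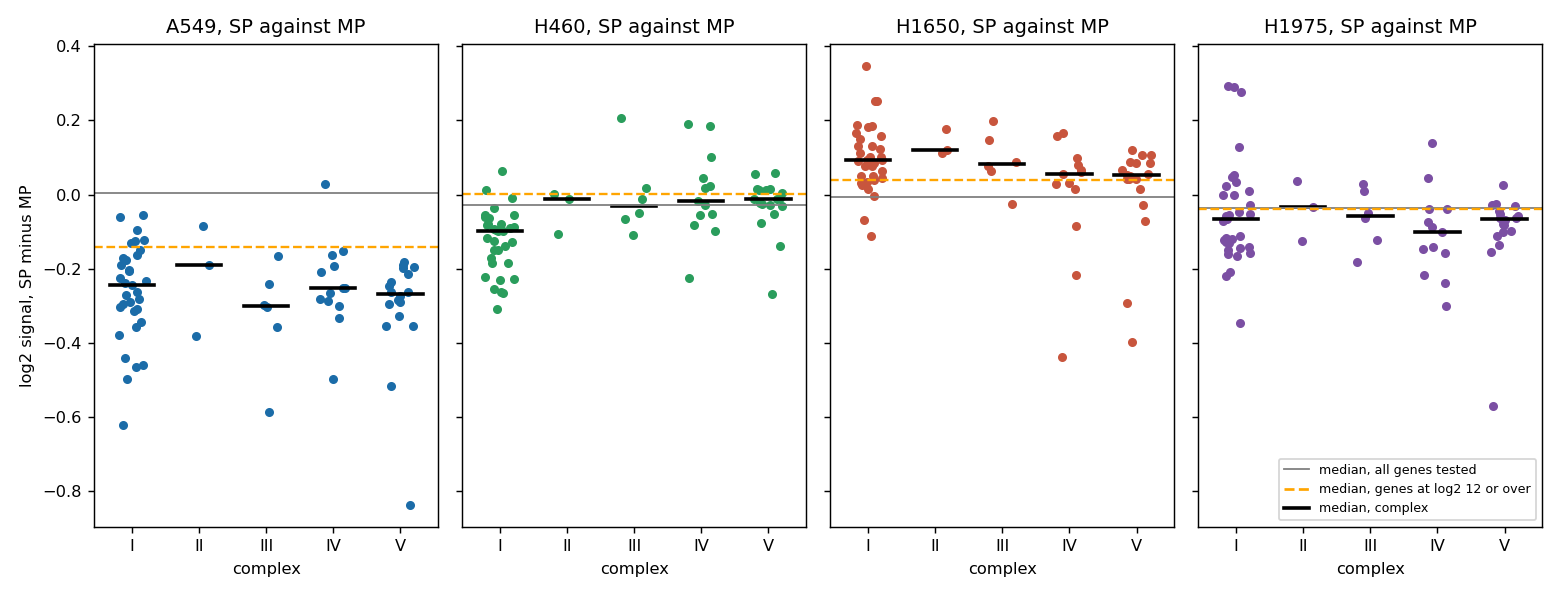
Log2 signal of SP minus MP for each tested subunit gene, by complex and line, 1 pair of arrays per line; bars are medians of a complex, the grey line is the median of all genes tested and the broken line that of genes with a mean of at least 12. In A549 72 of 73 genes are below 0 and in H1650, by its labels, 62 are above; in H1975 the median of -0.07 turned to 0.10 after scaling to the same median.

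The difference between A549 and the other lines in SP against MP was tested by fitting the 4 paired ratios. No member passed at an adjusted p under 0.05, as 0 genes did in all (0% higher and 0% lower). At an unadjusted p under 0.05 there were 15 members, all lower in the SP of A549, where 4.55% of all genes and 11% of the bright genes passed. The 15 became 4 after quantile normalization, 44 after scaling to the same median, 1 without the trend, 9 without H1650, 2 without H460 and 25 without H1975. The largest was UQCR11, with a ratio lower at -0.73 than the mean of the other lines (SE 0.14, limma adjusted p = 0.735). Its signals were 12.72 in SP and 13.31 in MP of A549, 13.26 and 13.06 in H460, 12.84 and 12.64 in H1650, and 13.63 and 13.60 in H1975. A second, dimmer probe set of UQCR11 did not show this. Its SP minus MP was -0.08 in A549, 0.04 in H1650, -0.19 in H460 and -0.07 in H1975. NDUFB5 had -0.57 and COX5A -0.43. In a second, dimmer probe set of COX5A, A549 was not the lowest line. There SP minus MP was 0.26 in A549, -0.13 in H1650, 0.10 in H460 and 0.47 in H1975. In H1650 0.0732% of all genes had a higher and 0.26% a lower ratio, and 0 members were among them. In H1975 these shares were 0.00813% and 0.0325%, and in H460 0% each, again with 0 members. Each of these tests sets 1 pair of arrays against 3, so the spread of the single line was taken from the others, and a p that misses the threshold does not show that the lines were alike.

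Beside the subunit genes stood 5 cell cycle genes, listed because they differed between the populations in earlier results. TOP2A, AURKB and CDK1 are signature genes that the paper drew from these same arrays, so their shift was no separate result. The paper reports them as higher in SP in every line, on the arrays and by qRT-PCR, with ABCG2 as a positive control. With the labels as deposited, all 5 genes were higher in the SP of A549, H460 and H1975 and lower in that of H1650. In that line the labels thus gave a direction opposite to the paper's. Whether its 2 arrays were exchanged was not tested. The median log2 difference of SP minus MP over TOP2A, MKI67, CCNB1, AURKB and CDK1 was 0.94 in H1975, 0.62 in A549, 0.45 in H460 and -1.24 in H1650, where the subunit genes had -0.07, -0.26, -0.06 and 0.08. The summed signal of these 5 genes ran from 8422 to 22630 in SP and from 6464 to 16500 in MP, and its part in the result was not tested. Of 7 mitochondrially encoded transcripts with a probe set, 6 were lower in the SP of A549 and 5 in that of H1975, with medians of -0.14 and -0.05. In H460 6 were higher and in H1650 4, with medians of 0.06 and 0.04. In the SP of A549, 49.4% of all genes tested and 79.6% of the bright genes were lower, and in that of H1975 54.7% and 57.6%. In H460 the shares that were lower were 55% and 49.4%, and in H1650 51.2% and 37.6%.

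Genes around the complexes were counted in the same fits. Of 47 tested assembly factors, which build the complexes and stay outside them, 21 were higher and 5 lower in H460 and 3 were higher and 22 lower in H1650, where of all genes 24.2% and 26.8% were so in H460 and 25.1% and 25.9% in H1650. In A549 11 were higher and 9 lower, and in H1975 15 and 12. OXA1L, which inserts subunits into the inner membrane, was lower in H1650 at -1.46 (limma adjusted p = 2.23e-05), and COA6, a copper factor of complex IV, was higher in H460 by 1.55. Of 17 other electron carriers and their biosynthetic genes, 8 were higher and 1 lower in A549, 6 and 1 in H460, 4 and 9 in H1650, and 2 and 6 in H1975. CYC1, the cytochrome c1 of complex III, was lower in H1975 at -1.08 and higher in A549 and H1650 by 0.64 and 0.68. Of 17 genes of the tricarboxylic acid cycle and pyruvate dehydrogenase, 6 were higher and 2 lower in H460. All 17 had a lower signal in the SP of A549, with a median of -0.22, as 49.4% of all genes and 79.6% of the bright genes did. In H460 15 were lower in SP, in H1650 9 and in H1975 7, with medians of -0.07, -0.02 and 0.06. In this order 55%, 51.2% and 54.7% of all genes and 49.4%, 37.6% and 57.6% of the bright genes were lower. None of these genes passed in SP against MP.

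The regulators of mitochondrial gene expression were called in H1650 in 12 of 18 tested genes, 4 higher and 8 lower, where 25.1% of all genes were higher and 25.9% lower. In H460 5 were higher and 1 lower, in A549 3 and 2, and in H1975 4 and 1. In H1650 TFAM and TFB2M, which start transcription of mitochondrial DNA, were lower at -0.95 and -0.72. POLRMT, the mitochondrial RNA polymerase, was lower in H1650 at -1.66, and TWNK, the mitochondrial helicase, at -1.26. NRF1 and GABPA passed in no line. PPARGC1A, the coactivator PGC-1 alpha, lay below the signal limit on average and was not in this fit. Its signals were 8.71 and 9.21 in A549, 7.17 and 7.07 in H460, 1.73 and 3.54 in H1650, and 3.18 and 1.23 in H1975. Both lines with mutated K-Ras lay above both lines with mutated EGFR, and with 2 lines of each kind the part of the mutation was not tested. PPARGC1B, its relative, was lower in A549 at -1.53 (limma adjusted p = 0.00151).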

How the data were processed

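The authors deposited log2 MAS5 signals, 1 array per population and line, made with GCOS 1.4 and MAS5 according to the submitters' notes. The 2% trimmed mean of the linear signal was 500.1 on each array and the median log2 signal ran from 5.92 to 6.29, so each array was scaled by 1 factor before deposit, and the deposited values are not centred by gene as the methods state. Detection calls were not used here. Of 54675 probe sets, 41097 had 1 gene symbol, 1801 several and 11777 none in the platform annotation, and 62 were controls. Of the 77 members, 44 had more than 1 probe set, and 41 were read by one with the suffix _x_at or _s_at, which can bind related transcripts.

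The fits ran in limma 3.58.1 (R 4.3.3, lmFit and eBayes with trend) on the 12300 of 19775 genes above the filter, with population and cell line as terms, and adjusted p under 0.05 as the threshold. SP minus MP in 1 line was compared with the other 3 on the paired ratios. The line pairs the arrays by design: deviations from the population means correlated from 0.887 to 0.94 within a line and at most at -0.043 between lines. The lines are the replicates in SP against MP. In the comparisons of lines the SP and the MP array of a line stand for it. No line was sorted again, so p-values measure the spread of the SP to MP difference between lines. The members and lists were chosen with earlier results of these data known. Genes were named by rule: up to 4 higher and 4 lower called members for each line, the 3 highest and 3 lowest mean ratios of SP over MP, the 2 smallest p of each complex, and the tissue-restricted isoforms and SDH subunits. The genes of chromosome 19, the ATP5MC, complex III and complex IV genes outside this rule and the list genes were named after their values were seen. The fits were tested on simulated data. Alternatives were a floor of 32, a pseudocount of 16, quantile normalization, scaling to the same median, no filter, no trend, other probe sets, no population term, no replicate block, exchanged H1650 labels and leaving out each array or line. Leaving out both H1650 arrays or exchanging their labels in the comparisons of lines, and the background of genes with a mean of at least 12 were added after seeing the data.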

Additional observations from a re-analysis of the deposited data

Results flagged for a closer look

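Within the 4 values of a set, 1 array or line stood apart from the other 3 in 5 of 93 sets of the named genes, where chance gives about 1 in 20. In COX6B2, the testis isoform of a complex IV subunit, the log2 difference of SP minus MP was -1.88 in A549 and between -0.38 and -0.26 in the other lines. Its signal lay below the limit for testing. In NDUFA3 the SP array of H460 had a log2 signal of 11.69, where the other SP arrays had between 12.10 and 12.15. In NDUFB5 the SP array of A549 had 12.26, where the other SP arrays had between 12.95 and 13.05. In SDHC SP minus MP was 0.11 in H1650 and between -0.12 and -0.09 in the other lines. In UQCRC2 the MP array of H1975 had 12.75, where the other MP arrays had between 13.28 and 13.34.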

How the results depend on the processing

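The count of genes called was 27 in A549, 32 in H1650, 34 in H460, 42 in H1975 and 56 in any line. It came to 12, 18 and 21 in A549, H1650 and H460 and 37 in any line without the trend, to 12 in A549 and 17 in H1650 after scaling to the same median, and to 17 in A549 and 27 in H1975 with probe sets of other suffixes, which measured 55 genes. With the H1650 labels exchanged it came to 41 in A549. Leaving out 1 array gave 13 to 33 in A549, 16 to 38 in H1650, 9 to 43 in H460, 20 to 47 in H1975 and 41 to 58 in any line. The median SP minus MP in A549 was -0.11 after quantile normalization and -0.42 after scaling to the same median, which gave 0.10 in H1975. The median difference from the other lines became -0.063 in A549 and 0.42 in H460 after that scaling, and 0.038 in H1650 and 0.036 in H460 after quantile normalization. The cause of these shifts was not tested. In SP against MP 0 members were called in any setting, also with 0 in each fit that left out an array or line, with no replicate block, and with the pairing kept as in the report. Signs turned in COX6A2 (0.0008), NDUFA10 (-0.059) and NDUFS1 (-0.060) with the H1650 labels exchanged, in NDUFA10 without H1975 (-0.0074, in a range to 0.149 over the lines left out), and in NDUFB7 without A549 (0.074) or H460 (0.0958, in a range from -0.0997). NDUFV3 in H1650 turned to -1.18 with another probe set. Of the other values for named genes, 51 lost and 7 gained a call, and 742 kept direction and side. With 2 arrays a line, small differences between lines stay below what these arrays can show.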
